A study of Mus musculus with 4 samples.

Results

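The transcription factor genes that set up the pancreas and its hormone cells, *Pdx1*, *Mnx1*, *Ptf1a*, *Nkx2-2*, *Nkx6-1*, *Nkx6-2*, *Neurog3*, *Insm1* and *Neurod1*, were examined together with the hormone gene *Gcg* in the mouse tracheoesophageal anlage, dorsal and ventral, at E9.75. Members were all probe sets whose only gene symbol in the platform annotation is one of these 10 genes, which gave 14 of the 34958 probe sets with 1 symbol and 10 of the 18194 genes that these cover. The anlage of BALB/c embryos was dissected as a single tube between the caudal end of the pharynx and that of the lung bud swelling, and was then divided by hand into its dorsal and its ventral part. Each part was measured on 2 Affymetrix arrays from 100 ng of total RNA, and the labels call the arrays of a part biological replicates without naming litters or pools, so a p-value here reflects the spread among 4 arrays, which may be technical. All embryos were of this strain, with no transgene or treatment named, and epithelium, mesenchyme and any attached tissue were measured together.

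The dorsal pancreatic bud grows from the dorsal wall of the foregut behind the stomach, facing the notochord, and in the mouse it appears at about the stage that was sampled. *Pdx1* marks the prospective pancreatic and duodenal endoderm, *Mnx1* is required in the mouse for the dorsal bud to form, and *Ptf1a* commits the bud to a pancreatic fate. *Neurog3* then starts endocrine differentiation and acts ahead of *Insm1* and *Neurod1*, and cells making glucagon, the product of *Gcg*, are among the first hormone cells of the dorsal bud. Several of the same factors have a second home outside the pancreas, since *Mnx1*, *Nkx2-2*, *Nkx6-1* and *Nkx6-2* pattern the ventral neural tube or its motor neurons and *Insm1* and *Neurod1* act in developing neurons. The question asked of the arrays was whether tissue with the profile of the dorsal bud reached the dorsal piece, whose caudal limit lay at the lung bud.

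Values are given as deposited, on the log2 scale of RMA, and a low value is described by its place on its array. The 40th percentile over all probe sets was 4.73 on both dorsal arrays and 4.69 and 4.82 on ventral replicates 1 and 2. A probe set was tested with limma when it exceeded that percentile on at least 2 arrays, which held for 23336 probe sets, and it passed at an adjusted p under 0.05. Dorsal replicates differed by a median of 0.085 and ventral replicates by 0.27, and the upper quartile of ventral replicate 2 was 7.75, where that of the other 3 arrays lay between 7.995 and 8.02. All 6 probe sets of foregut epithelium markers and all 6 of foregut mesenchyme markers were above the filter, with means of 8.82 and 8.82 dorsally, against 9.14 and 9.07 ventrally, for epithelium and 9.04 and 9.003 dorsally, against 8.44 and 8.22 ventrally, for mesenchyme. The mesenchyme markers were *Foxf1*, *Barx1*, *Wnt4* and *Osr1*, and *Wnt4* is known from esophagus mesenchyme. Only 2 of their 6 probe sets, of 1 gene, passed dorsally, and the other 4 did not pass. At an unadjusted p under 0.05 from limma, 2 were higher dorsally and 1 ventrally, and the median difference of the 6 was 0.16. None of the epithelial ones passed, with a median of -0.43. In whole pieces of tissue, fewer cells of a type and less RNA per cell cannot be told apart.

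*Mnx1*, *Neurog3*, *Insm1* and *Neurod1* were higher in the dorsal piece, each with at least 1 probe set, *Ptf1a* and *Nkx2-2* were low on every array, and the values of *Gcg* overlapped between the pieces. Of the 14 probe sets, 13 had a higher mean dorsally, with a median difference of 0.63 beside 0.02 over all 34958. On 10 of them both dorsal values exceeded both ventral ones (background 24.9%), on 1 both ventral values exceeded both dorsal ones (background 18.9%), and 3 overlapped. By place on the array, 4 lay under the 40th percentile of all 4 arrays (30.5% of all probe sets did), namely those of *Ptf1a* and *Nkx2-2* and 1 each of *Pdx1* and *Neurog3*. Those of *Nkx6-1* and *Gcg* lay above it on all 4 arrays, as did 62.2% of all probe sets. Another 7 were above it on both dorsal arrays and under it on both ventral ones, which held for 0.641% of all probe sets, and they belong to *Pdx1*, *Mnx1*, *Neurog3*, *Insm1* with both of its probe sets, *Neurod1* and *Nkx6-2*. The remaining *Neurod1* probe set exceeded it on dorsal replicate 2 alone. Of the 9 that were tested, 6 were higher dorsally against 3.28% of all tested probe sets (765 probe sets). By limma none was higher ventrally, against 2.56% of all (597 probe sets). At an unadjusted p under 0.05 from limma, 0 of the 9 were higher ventrally, where 3738 of all 23336 passed in either direction. With quantile normalization once more, the split over all tested probe sets was 601 dorsally and 684 ventrally. Because 7 of these 9 entered the test through the dorsal arrays alone, they had almost no room to come out higher ventrally. The count was therefore also taken without a filter. There 5 of all 14, from 4 genes, passed dorsally against 1.84% of all 34958, *Pdx1* being the one lost, and 0 ventrally against 1.56%. The 10 members were chosen with earlier results of these data known, so these shares describe the list and do not test it. No array of isolated pancreatic bud was among the samples, and the share of bud tissue in the dorsal piece was not tested.

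**Figure D1:**
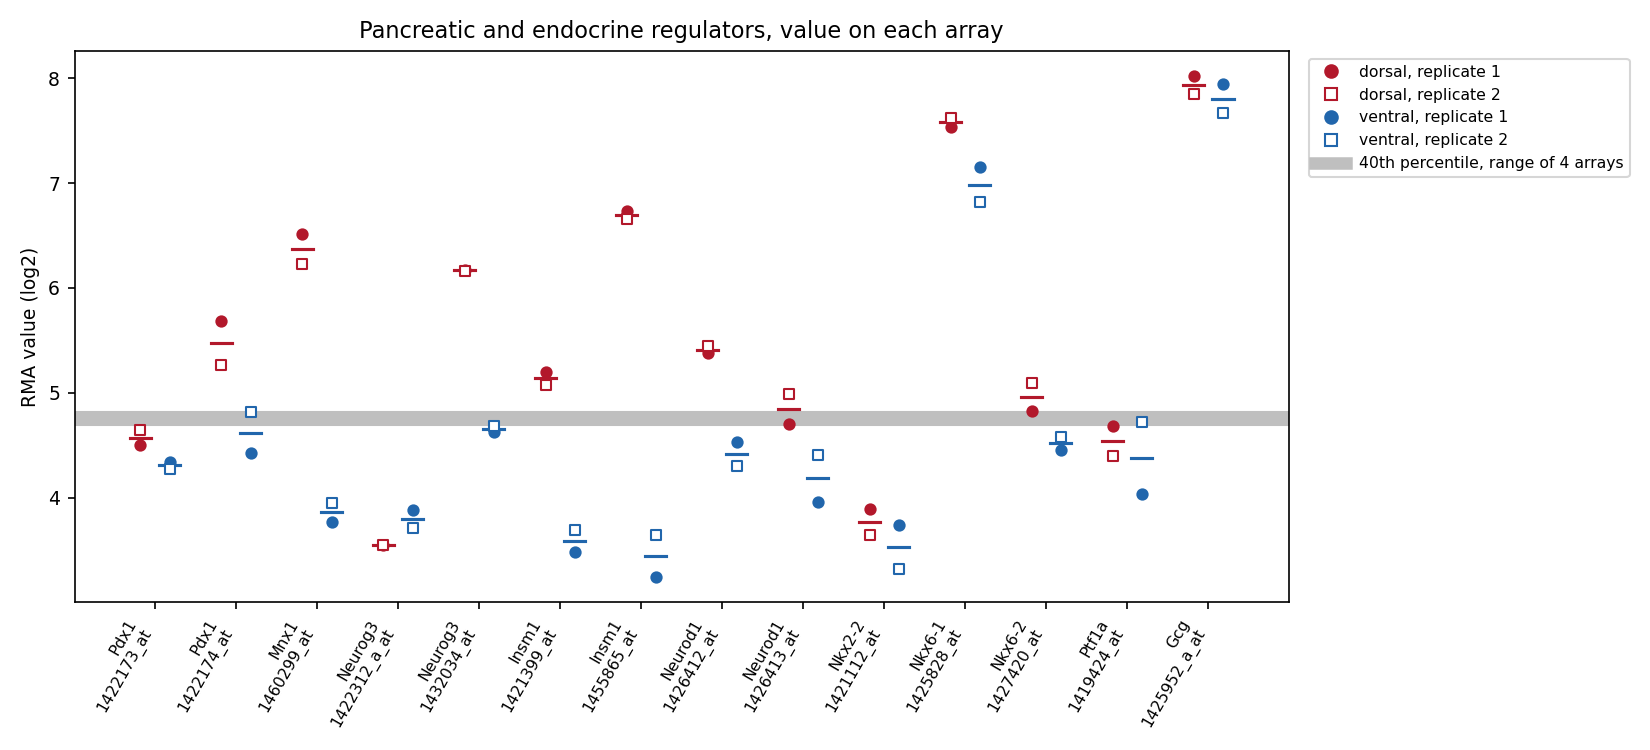
RMA values (log2, vertical axis) of the 14 member probe sets, with filled circles for replicate 1, open squares for replicate 2 and a bar at the mean of each part, dorsal left of ventral. The grey band spans the 40th percentiles of the 4 arrays (4.69 to 4.82). *Mnx1*, 1 probe set of *Insm1* and 1 of *Neurog3* lie well above the band dorsally, and the other of *Insm1* lies nearer to it (5.20 and 5.07). Ventrally *Mnx1* and *Insm1* lie under the band and that *Neurog3* probe set at its lower edge (4.63 and 4.69). *Nkx6-1* and *Gcg* lie above it in both parts.

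The sequences ahead of the transcription start of *Pdx1*, *Mnx1*, *Neurog3* and *Neurod1* are shown because these genes passed the test in the same direction and because *Neurog3* and *Neurod1* encode bHLH factors, which bind the E-box CANNTG. Each run holds the 250 bases upstream of the start in RefSeq (GRCm38.p6), 5′ to 3′ on the strand of the gene, with E-boxes in capitals.
*Pdx1*, chr5:147269847-147270096, plus strand: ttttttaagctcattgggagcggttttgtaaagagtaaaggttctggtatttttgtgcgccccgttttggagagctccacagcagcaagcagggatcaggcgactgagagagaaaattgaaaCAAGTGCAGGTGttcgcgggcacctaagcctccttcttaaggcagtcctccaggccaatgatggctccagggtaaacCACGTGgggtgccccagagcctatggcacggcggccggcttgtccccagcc
*Mnx1*, chr5:29478471-29478720, minus strand: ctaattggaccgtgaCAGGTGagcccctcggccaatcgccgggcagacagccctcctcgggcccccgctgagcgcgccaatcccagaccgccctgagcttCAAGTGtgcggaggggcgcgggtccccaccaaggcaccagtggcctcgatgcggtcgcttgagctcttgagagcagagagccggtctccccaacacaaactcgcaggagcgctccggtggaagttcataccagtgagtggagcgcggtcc
*Neurog3*, chr10:62132840-62133089, plus strand: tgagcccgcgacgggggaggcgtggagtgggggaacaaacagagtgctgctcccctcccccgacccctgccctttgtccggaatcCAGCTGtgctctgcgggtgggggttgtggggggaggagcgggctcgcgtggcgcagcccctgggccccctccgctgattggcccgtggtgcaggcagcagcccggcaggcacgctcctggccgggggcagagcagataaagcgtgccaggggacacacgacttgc
*Neurod1*, chr2:79456637-79456886, minus strand: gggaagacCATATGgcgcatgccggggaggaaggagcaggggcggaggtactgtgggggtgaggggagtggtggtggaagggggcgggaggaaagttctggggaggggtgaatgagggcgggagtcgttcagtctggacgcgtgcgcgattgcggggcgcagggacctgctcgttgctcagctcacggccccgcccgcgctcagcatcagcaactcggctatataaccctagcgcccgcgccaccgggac
The *Pdx1* window held CAAGTG starting 128 bases before the start, with CAGGTG next to it at 122 bases, and CACGTG at 51 bases. The *Mnx1* window held CAGGTG and CAAGTG, starting 235 and 150 bases before the start, the *Neurog3* window held CAGCTG at 165 bases, and the *Neurod1* window held CATATG at 242 bases. CANNTG reads the same on both strands and occurred in 66.2% of the 32851 windows of this length, and CAGCTG, which is one of its forms, in 13% (4271 windows). CAGATG or its complement CATCTG, another form, occurred in 14.4% of all windows and in none of these 4. Windows were found for 9 of the 10 members, of which 7 held CANNTG and those of *Nkx6-1* and *Ptf1a* did not, and these matches are a description of letters only. *Insm1* was not matched.

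Among the factors of the early bud, *Mnx1* stood 5.68-fold higher in the dorsal part. This homeobox gene, known in the mouse for the dorsal bud, the notochord and motor neurons, had 6.51 and 6.23 on the dorsal arrays, against 3.77 and 3.95 on the ventral arrays (probe set 1460299_at). Both dorsal values lay near the 60th percentile of their arrays (61.7 and 58.9), both ventral values were near the 23rd (22.3 and 23.2), and the parts did not overlap. The log2 difference was 2.51 (standard error 0.18 with 2 arrays in each part, limma adjusted p = 1.00e-05), the 34th largest toward the dorsal side among all 23336 tested probe sets. Since the ventral level is low, its size depends on that level, and with values under the 40th percentile set to it the difference was 1.61. It passed under all 14 settings that could test it, with an adjusted p of at most 0.00744 from limma.

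*Pdx1*, the homeobox gene of pancreatic and duodenal endoderm, was higher dorsally with one probe set and under the 40th percentile of every array with the other. Probe set 1422174_at had 5.68 and 5.26 dorsally, against 4.43 and 4.81 ventrally, so the dorsal arrays were near their medians and both ventral ones just under their 40th percentiles. Its log2 difference of 0.85 (standard error 0.20) passed narrowly, at an adjusted p = 0.0330 from limma. The call was lost without a filter (adjusted p = 0.0653 from limma), with quantile normalization once more (0.87), with low values set to the 40th percentile (0.72), without ventral replicate 1 (0.66) and without ventral replicate 2 (1.05), and the arrays numbered 1 gave 1.25 where those numbered 2 gave 0.45. With the filter of all 4 arrays kept, it was also lost without dorsal replicate 1 (0.64), and over the settings the adjusted p ran from 0.000112 to 0.664. The other probe set, 1422173_at, had 4.50 and 4.65 dorsally, against 4.34 and 4.28 ventrally, a difference of 0.26 (adjusted p = 0.541 from limma without a filter).

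*Ptf1a*, which encodes the bHLH factor of pancreatic progenitors, had 4.69 and 4.40 dorsally, against 4.04 and 4.72 ventrally. The parts overlapped, and all 4 values lay under the 40th percentile of their arrays, at percentiles 39.4 and 34.6 dorsally and 28.2 and 38.4 ventrally. The arrays numbered 1 differed by 0.65 and those numbered 2 by -0.33. *Nkx2-2*, a homeobox gene of endocrine progenitors and of the ventral neural tube, was low as well, with 3.89 and 3.65 dorsally, against 3.74 and 3.32 ventrally. Its values lay at percentiles 24.7 and 19.1 dorsally and 21.4 and 9.27 ventrally, and the parts overlapped. Without a filter neither gene passed (adjusted p = 0.817 and 0.660 from limma), and at these levels a difference between the parts was not detectable.

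The paralogs *Nkx6-1* and *Nkx6-2* encode homeodomain factors that act in pancreatic progenitors and in the ventral neural tube. *Nkx6-1* had 7.54 and 7.62 dorsally, against 7.15 and 6.82 ventrally, at the 66th percentile or above on each array (66.5 the lowest). The dorsal arrays lay above both ventral ones, with a log2 difference of 0.59 (standard error 0.18) that did not pass over all probe sets (adjusted p = 0.0917 from limma). It passed with 1 probe set per gene (0.59, adjusted p = 0.0350) and with a block for the replicate number (0.59, adjusted p = 0.0186), each from limma. Its side of the threshold therefore depends on the setting. Without ventral replicate 1 the difference was 0.76. That fit takes its spread from the 2 dorsal arrays alone, which lie close together, and far more of all probe sets passed there than in the main fit. A call under it therefore says little about a single gene or list. *Nkx6-2* had 4.83 and 5.10 dorsally, against 4.46 and 4.58 ventrally, just above the 40th percentile in the dorsal part and under it in the ventral part. Its difference of 0.44 (standard error 0.17) did not pass (adjusted p = 0.222 from limma), nor did it under any of the other settings that could test it, with adjusted p from 0.102 to 1.

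Among the factors that start endocrine differentiation, *Neurog3* was higher dorsally with one probe set and low in both parts with the other. Probe set 1432034_at had 6.17 and 6.16 in the dorsal part, against 4.63 and 4.69 in the ventral part, with both ventral values just under the 40th percentile. Its log2 difference was 1.51, a fold of 2.84 (standard error 0.16, adjusted p = 0.000190 from limma), and it passed under all 14 settings that could test it, with 1.54 for the arrays numbered 1 and 1.47 for the arrays numbered 2. With low values set to the 40th percentile it was 1.41. Probe set 1422312_a_at had 3.55 and 3.55 dorsally, against 3.88 and 3.71 ventrally, under the 25th percentile of every array and in the opposite direction (-0.24, adjusted p = 0.576 from limma without a filter). The 2 probe sets therefore do not give the same account of *Neurog3*, and which of them follows its transcript was not tested.

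*Insm1*, which encodes a zinc finger factor of endocrine cells and neurons, showed the largest difference among the members, 9.53-fold. Probe set 1455865_at had 6.74 and 6.66 dorsally, against 3.24 and 3.65 ventrally. The dorsal values were near the 64th percentile and the ventral ones under the 17th. The log2 difference was 3.25 (standard error 0.18, adjusted p = 2.06e-06 from limma), the 15th largest toward the dorsal side among all tested probe sets, and it was 1.94 with low values set to the 40th percentile. The other probe set, 1421399_at, moved the same way at a lower level, with 5.20 and 5.07 dorsally, against 3.49 and 3.69 ventrally (log2 difference 1.55, standard error 0.17, adjusted p = 0.000223 from limma). It passed under 12 of the 13 settings that could test it, and with low values set to the 40th percentile it did not (0.38, adjusted p = 0.276 from limma).

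*Neurod1*, the bHLH gene that follows *Neurog3* in the pancreas and also acts in sensory and other neurons, was 1.99-fold higher dorsally with probe set 1426412_at. It had 5.38 and 5.44 dorsally, close to the array medians, against 4.54 and 4.30 ventrally. The parts did not overlap, and the log2 difference was 0.99 (standard error 0.17, adjusted p = 0.00465 from limma). With the filter of all 4 arrays kept, the call was lost on omitting dorsal replicate 1 (1.02) or dorsal replicate 2 (0.96). The limma adjusted p lay between 3.24e-06 and 0.0857 in all settings that could test it. Probe set 1426413_at, with 4.71 and 4.99 dorsally, against 3.96 and 4.41 ventrally, differed by 0.66 in the same direction and was below the filter (adjusted p = 0.147 from limma without a filter).

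*Gcg*, the only hormone gene among the members, showed no difference that passed. It had 8.02 and 7.85 dorsally, against 7.94 and 7.66 ventrally, near the 74th or 75th percentile of each array. The parts overlapped, and the difference of 0.13 (standard error 0.17) had an adjusted p = 0.763 from limma, with a range from 0.123 to 1 over the settings. Without ventral replicate 2 the difference turned to -0.0089, and without ventral replicate 1 it was 0.27. One probe set, 1425952_a_at, measures it, and no second one could be set beside it.

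**Figure D2:**
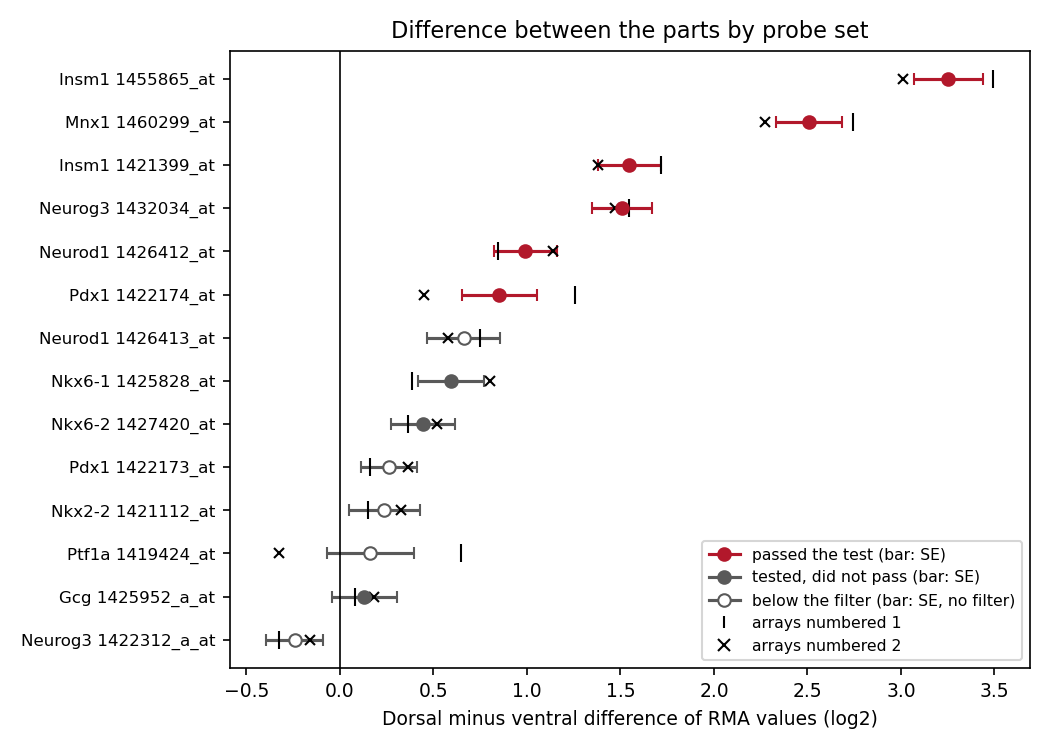
The horizontal axis gives the log2 difference, dorsal minus ventral, of each of the 14 member probe sets with its standard error from limma. Red marks probe sets that passed, grey those that did not, and open circles those below the filter, whose error comes from the fit without one. Short vertical marks and crosses give the difference within the arrays numbered 1 and 2, and *Insm1* (3.25) and *Mnx1* (2.51) lie farthest to the right.

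Genes that work beside these regulators gave a mixed picture. Of 31 probe sets of other factors of pancreatic progenitors and foregut endoderm, 23 were tested, and 4 were higher dorsally and 6 ventrally (background 3.28% and 2.56%). The dorsal ones were all 3 of *Onecut2* and 1 of *Sox17*, and *Onecut2*, a cut homeobox gene of early pancreatic and hepatic endoderm and of neurons, had 4.93 and 5.13 dorsally, against 3.99 and 3.89 ventrally, with the probe set of the largest difference (1.09, adjusted p = 0.00247 from limma). With low values set to the 40th percentile that difference was 0.27 and did not pass (adjusted p = 0.479 from limma). A second probe set of *Onecut2* (0.82) passed under 6 of the 16 settings that could test it and was lost without a filter and without any 1 array, with adjusted p up to 0.730 from limma, and the third (0.84) passed under 10 of 13. *Sox17*, named after its values were seen, passed under 13 of 17 settings and was lost without either dorsal array. Its other probe set did not pass in the main fit and did under 8 of 16 settings. The ventral ones were of *Gata4* (-3.05), *Gata6* (-2.15) and *Hhex* (-1.10), the last a homeobox gene of liver and ventral pancreas. The median difference of this list was -0.09 over all its probe sets. The shares of 3.28% dorsally and 2.56% ventrally over all tested probe sets are also the background for each list below.

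Of 32 probe sets of further endocrine differentiation factors, 17 were tested and by limma none was higher dorsally, with 3 at an unadjusted p under 0.05. The dorsal count was 3 with the replicate block and 1 with 1 probe set per gene. It also rose without ventral replicate 1, where the spread comes from the dorsal arrays alone. Both probe sets of *Isl1*, a LIM homeobox gene of islets, heart progenitors and motor neurons, were higher ventrally, one with 10.33 and 10.42 dorsally, against 12.14 and 11.93 ventrally (-1.66, adjusted p = 0.000126 from limma). *Pax6*, which acts in islets and neural tube, and *Pax4*, of the insulin-cell lineage, did not pass, and *St18*, *Lmx1a* and *Hnf4g* lay under the 40th percentile of every array with all their probe sets.

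Among 20 probe sets of islet hormones and secretory granule genes, 4 of the 13 tested were higher dorsally and none ventrally, also at an unadjusted p under 0.05 (0 of 13). The dorsal count was 2 with a filter at the 60th percentile or with quantile normalization applied again, and it also fell without either dorsal array. The ventral count rose without ventral replicate 1, where the spread comes from the dorsal arrays alone. *Pyy*, which encodes the gut and islet hormone peptide YY, had 8.21 and 8.01 dorsally, against 6.60 and 7.04 ventrally (1.29, standard error 0.19, adjusted p = 0.00200 from limma). Quantile normalization applied again left *Pyy* at 1.17, where the call was lost (adjusted p = 0.0714 from limma). *Chgb*, the granule protein chromogranin B of endocrine cells and neurons, had 5.65 and 5.72 dorsally, against 4.41 and 4.91 ventrally (1.02, adjusted p = 0.00972 from limma), and it was lost without dorsal replicate 2 (0.98). *Iapp*, which encodes amylin, passed with 2 of its 4 probe sets, the higher of them at 7.02 and 6.84 dorsally, against 5.97 and 6.06 ventrally (0.92, adjusted p = 0.00680 from limma), with the call lost without dorsal replicate 1 (0.83) or dorsal replicate 2 (1.005). The insulin gene *Ins2* (-0.22) and the somatostatin gene *Sst* (0.04) did not pass, and *Ppy*, *Scg2*, *Slc2a2*, *G6pc2*, *Slc30a8* and *Ucn3* lay under the 40th percentile of all 4 arrays.

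Of 24 probe sets of exocrine genes, 16 were tested and 1, that of *Cpa1*, was higher dorsally, with none higher ventrally by limma and 2 ventral ones at an unadjusted p under 0.05. The ventral count was 1 with equal array medians, with 1 probe set per gene or with the replicate block. It also rose without dorsal replicate 1 and, most, without ventral replicate 1, where the spread comes from the dorsal arrays alone. *Cpa1*, the carboxypeptidase of acinar cells and of early pancreatic tip progenitors, had 7.72 and 7.51 dorsally, against 6.92 and 6.55 ventrally (0.88, standard error 0.18, adjusted p = 0.0170 from limma). Its call was lost without dorsal replicate 1 (0.77), without dorsal replicate 2 (0.98) and without ventral replicate 2 (0.70). The median difference of the list was -0.16. Of the genes that place cells along the gut, *Cdx1*, *Cdx2* and *Cdx4* of the intestine lay under the 40th percentile of every array, with *Cdx2* at 4.59 and 4.56 dorsally and 4.53 and 4.70 ventrally in its higher probe set, while *Barx1* of the stomach mesenchyme (0.18) and *Sox2* of the anterior foregut (0.57) did not pass. *Sox2* passed under 7 of 17 settings, among them the replicate block, 1 probe set per gene and fits left with 1 ventral array. The difference of *Barx1* was 0.40 without ventral replicate 1, where the spread comes from the dorsal arrays alone. Of the 14 probe sets of this list 6 were tested, by limma none was higher dorsally, with 1 at an unadjusted p under 0.05, and 1 was higher ventrally. The ventral one was of *Sfrp5*, a secreted Wnt inhibitor gene of foregut endoderm, at 6.34 and 6.41 dorsally, against 6.92 and 7.27 ventrally (-0.72, adjusted p = 0.0400 from limma), and its call was lost without a filter, with quantile normalization applied again and without either dorsal array. Of 15 probe sets of dorsal pancreatic and splenic mesenchyme 14 were tested, with 1 higher dorsally and 4 ventrally. At an unadjusted p under 0.05 from limma these were 1 and 8, and the median difference of the list was -0.47. *Wt1* was higher dorsally (2.96) and *Nkx2-5* (-2.90), *Isl1* and 1 probe set of *Nr2f2* (-0.64) ventrally. *Tlx1* of the spleen primordium did not pass (0.24), and *Nkx3-2* lay under the 40th percentile throughout.

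**Figure D3:**
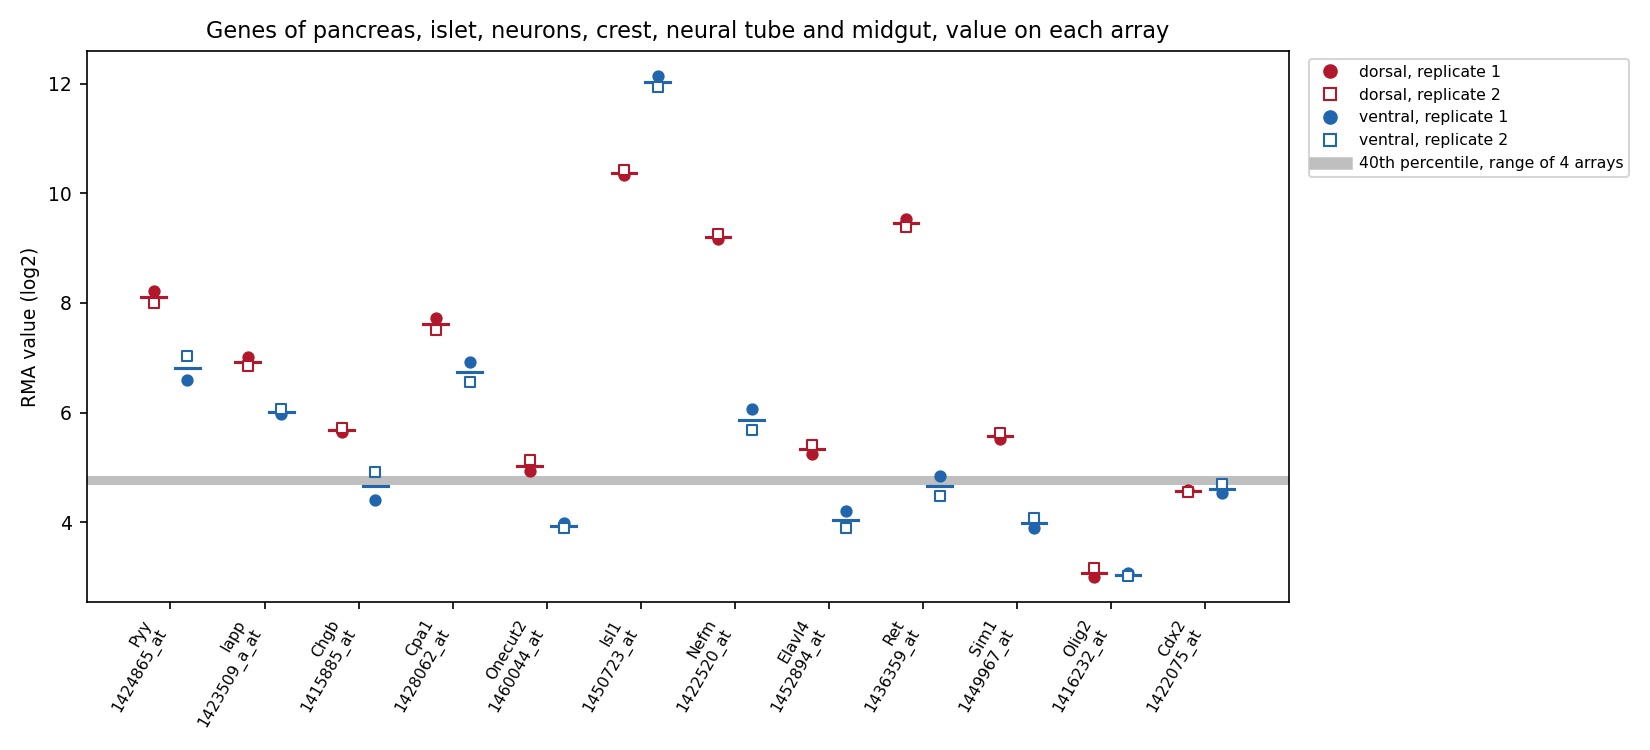
RMA values (log2, vertical axis) on each array of genes from the other lists, drawn like the members, dorsal left of ventral, with the 40th percentiles as a grey band. *Pyy*, *Iapp*, *Chgb*, *Cpa1*, *Onecut2*, *Nefm*, *Elavl4*, *Ret* and *Sim1* lie higher dorsally, *Isl1* lies higher ventrally, and *Olig2* and *Cdx2* lie under the band in both parts.

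Some markers of neurons and neural crest were higher dorsally, as *Insm1*, *Neurod1* and *Neurog3* were. Of 32 probe sets of neuronal genes 16 were tested, 8 were higher dorsally (4 without dorsal replicate 2 and 5 without dorsal replicate 1) and 1 ventrally, the median difference over all 32 was 0.18, and the mean over the list was 5.24 and 5.25 on the dorsal arrays, against 4.89 on each ventral array. *Nefm*, the medium neurofilament gene, had 9.16 and 9.25 dorsally, against 6.07 and 5.67 ventrally (3.33), *Nefl*, the light one, differed by 1.58 and *Elavl4*, a neuronal RNA-binding protein gene, by 1.29, while *Hand2* was lower dorsally (-2.23). *Ina*, *Snap25*, *Syt4* and *Phox2a* lay under the 40th percentile of all arrays. Of 22 probe sets of neural crest and its glia 17 were tested, 8 were higher dorsally and 2, both of *Ednrb*, ventrally, and the mean over the list was 6.98 and 7.07 dorsally, against 6.02 and 6.11 ventrally. *Ret*, the receptor of enteric crest cells, differed by 4.79 with 1 of 2 probe sets, *Tfap2b* by 3.32, *Tfap2a* by 2.62 and *Sox10* by 2.05, and *Sox8* lay under the 40th percentile throughout. The part of these cells in the values of *Insm1*, *Neurod1* and *Neurog3* was not tested.

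Genes listed for the neural tube and the notochord, the other known sites of *Mnx1*, went in both directions. Of 43 probe sets of neural tube domains and motor neurons 21 were tested, with 2 higher dorsally and 2, both of *Isl1*, ventrally. The mean over the list was 5.45 on each dorsal array, against 5.45 and 5.54 on the ventral arrays. All probe sets of 9 of its 22 genes lay under the 40th percentile of all 4 arrays, among them the defining genes *Olig2*, at 2.99 and 3.16 dorsally and 3.07 and 3.01 ventrally, and *Sox1*. *Sim1*, of a ventral interneuron domain and of mesoderm, was higher dorsally at 5.51 and 5.62, against 3.89 and 4.08 ventrally (1.58, adjusted p = 0.000176 from limma), while its other probe set lay under the 40th percentile of all arrays, and 1 of 8 probe sets of *Foxp1* was also higher dorsally (1.08). Of 17 probe sets of notochord and floor plate 13 were tested, with 2 higher dorsally and 2, both of *Shh*, ventrally. *Shh* differed by -2.66 with the larger of them, 1 of 2 probe sets of *Ntn1* (2.32) and of *Cdh2* (0.91) were higher dorsally, and *Chrd* did not pass (0.02). The defining notochord genes *T* and *Noto* were not matched to a probe set, and the mean over that list was 7.66 and 7.61 dorsally and 7.79 and 7.60 ventrally. *Foxa2* of that list is also among the foregut epithelium markers, so the list is not specific to notochord. The part of neural tube or notochord in the *Mnx1* values was not tested.

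Some markers of liver and airway and most of heart muscle lay higher in the ventral part. By limma, 9 of 16 tested probe sets of hepatic endoderm, 7 of 16 of respiratory endoderm and 13 of 14 of heart muscle were higher there and none dorsally, also at an unadjusted p under 0.05 (0 in each list). The hepatic ones belong to 3 of 7 tested genes, *Afp*, *Ttr* and *Hhex*. Those of the airway belong to 5 of 9, *Irx1*, *Irx2*, *Id2*, *Bmp4* and *Wnt7b*, while *Nkx2-1* was tested and did not pass. For heart muscle they belong to 9 of 9. Means over these lists were 5.16 and 5.17 dorsally, against 5.98 and 5.92 ventrally, for hepatic genes, 6.80 and 6.84 dorsally, against 7.48 and 7.32 ventrally, for respiratory genes, and 5.28 and 5.27 dorsally, against 7.89 and 7.68 ventrally, for heart muscle.

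**Figure D4:**
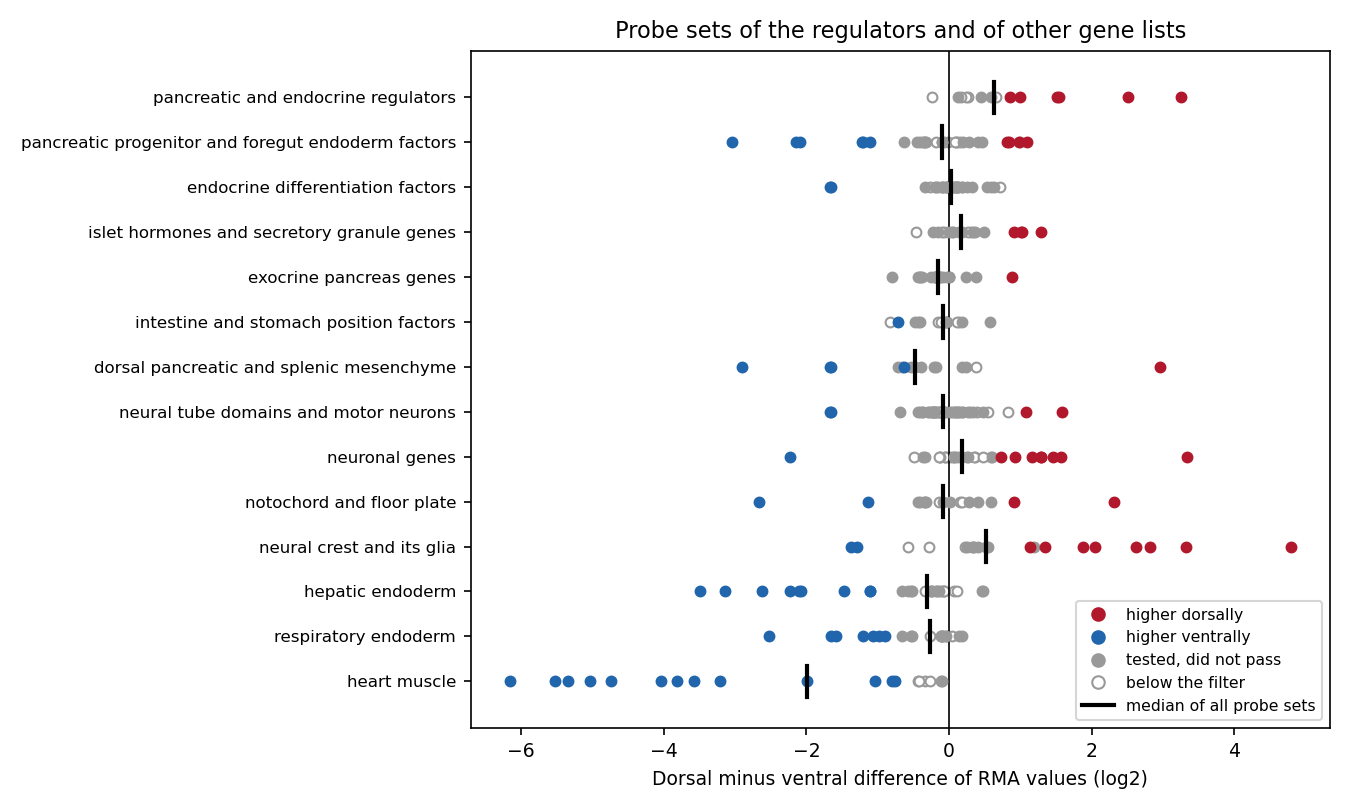
The horizontal axis gives the log2 difference, dorsal minus ventral, of every probe set of the members and of the other gene lists (rows), coloured by its limma call, with open circles below the filter and a bar at the median of all probe sets. The median is 0.63 for the members and 0.52 for neural crest, and it lies at -1.99 for heart muscle.

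The profile of *Insm1* over the arrays was compared with that of every other tested gene, because its probe set had the largest difference among the members that passed. By Euclidean distance between values centred on each probe set's mean over the 4 arrays, the nearest were *Prrx1* (0.20), *Tfap2b* (0.24), *Cdh19* (0.35), *Col26a1* (0.42) and *Maf* (0.43). *Prrx1* is a homeobox gene of mesenchyme, and *Tfap2b* and *Cdh19* are known from neural crest and its glia. With 4 arrays this likeness follows the size of the difference between the parts, which was 3.08 to 3.34 in these 5 genes beside 3.25 in *Insm1*.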

How the data were processed

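Dorsal and ventral parts were each measured on 2 arrays (E9.75, 100 ng of total RNA). RMA, named in the processing notes of the submitters, gave the authors' values, and the deposited values are read as log2 from their range (2.36 to 15.02). Not given in the sources used here are the RMA software and its version. Symbols came from GEO's platform annotation: of 45101 probe sets 34958 had 1 symbol, 932 had several and 9211 were not named here; 34754 identifiers were found in RefSeq (GRCm38.p6) and 0 symbols changed. A probe set above the 40th percentile on 2 or more arrays was tested two-sided, dorsal minus ventral, in R 4.3.3 (limma 3.58.1, lmFit and eBayes), without a replicate term, with Benjamini-Hochberg adjustment over 23336 probe sets and a threshold of 0.05; the script was tested on simulated data. With 2 arrays a part, the smallest two-sided p of an exact permutation test would be 0.333. The 10 members and the lists were chosen with earlier results of these data known, so the lists are described by counts and medians only. Named are all members, up to 4 genes per list with the largest differences that passed, and defining genes with low values, and others named were chosen after their values were seen. The setting of low values to the 40th percentile, the differences within each replicate number and the omission of an array with the filter kept were added after the data were seen. Precision is limited by the number of arrays. The alternatives were no filter or one at the 60th percentile, 1 probe set per gene, equal array medians, quantile normalization applied again, eBayes with a trend, the replicate block, other percentiles for low values and the omission of each array.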

Additional observations from a re-analysis of the deposited data

How the results depend on the processing

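The count of 6 member probe sets higher dorsally was 1 with a filter at the 60th percentile (3 members tested) and 5 to 7 without a filter, with quantile normalization once more, equal array medians, 1 probe set per gene, a trend or the replicate block. Without 1 array it ran from 0 to 6, and it was 0 without either dorsal array because the filter then leaves 2 members to test; with the filter of all 4 arrays kept it ran from 4 to 6. It was 4 with low values set to the 40th percentile, and none was higher ventrally under any of these settings. Under the 40th percentile of all 4 arrays lay 4 members, against 2 at the 30th, 8 at the 50th and 6 at the 40th percentile of named probe sets. Over all probe sets, 765 were higher dorsally and 597 ventrally, 1389 and 937 with the replicate block, and 601 and 684 with quantile normalization once more, where the median difference moved from 0.08 to -0.0063. Without 1 array these counts ran from 296 to 6739 and from 354 to 2149 with the filter set again, and from 356 to 6542 and from 355 to 2285 with it kept, including 372 and 363 without dorsal replicate 2 and 713 and 920 without ventral replicate 2 with it kept; a part left with 1 array is assumed to vary like the other. Over the other lists, 30 probe sets were higher dorsally and 44 ventrally, 14 to 46 and 35 to 61 without 1 array, 19 to 44 and 35 to 69 with the filter kept, and 40 and 55 with the replicate block; with 1 probe set per gene 29 were higher ventrally, since fewer were tested. *Gcg* ran from -0.0089 without ventral replicate 2 to 0.27 without ventral replicate 1, and the cause was not tested. Without 1 array *Ins2* ran from -0.45 to 0.015, *Barx1* from -0.033 to 0.40, *Sst* from -0.10 to 0.18 and *Chrd* from -0.064 to 0.11, and *Chrd* was -0.0083 with quantile normalization once more. Deviations of same-numbered arrays correlated at 0.21 over probe sets, and with 2 pairs the numbers are not taken as pairing. The block made *Nkx6-1* pass and changed no other member's call. Low levels limit what can be said of *Ptf1a*, *Nkx2-2* and the lower probe sets of *Pdx1* and *Neurog3*.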
